A study of Mus musculus with 6 samples.

Results

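The chaperones of the endoplasmic reticulum (ER) and the sensors of unfolded protein were followed in mouse mammary epithelial cells during the response to TGFβ1. They are the 10 genes Hspa5, Hsp90b1, Calr, Canx, Pdia3, Pdia4, Pdia6, Xbp1, Atf6 and Ern1, taken from a list of symbols, out of 21240 genes counted. All 10 passed the filter on low counts and were among the 11080 genes tested. NMuMG cells, an epithelial line from the normal mouse mammary gland, were kept without serum and insulin for 6 h in every group. TGFβ1 was then added at 5 ng/ml, for 2 h in one group and 12 h in another, and the remaining group had vehicle for 2 h (the acidified BSA solution in which TGFβ1 was dissolved, called Tris-HCl with BSA in one label). Each group has 2 biological replicates, which gave 6 strand-specific libraries of total RNA. No vehicle library was taken at 12 h, so that at this time an effect of TGFβ1 and an effect of the longer time without serum cannot be told apart, and both comparisons with vehicle share the same vehicle libraries.

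Proteins that enter the ER are folded there by chaperones, are held in a cycle of sugar-binding chaperones, and have their disulfide bonds made and reshuffled by isomerases. When unfolded protein accumulates, the sensors IRE1α (encoded by Ern1), ATF6 and PERK start the unfolded protein response: IRE1α splices the Xbp1 mRNA, ATF6 is released as a transcription factor by proteolysis, and PERK slows translation. Both XBP1 and ATF6 raise transcription of chaperone genes, and cells that secrete much protein, such as milk-producing mammary cells, rely on this response.

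Total counts per library were 16251758 and 14705886 with vehicle (replicates 1 and 2), 20578661 and 19904400 at 2 h, and 23786993 and 20142492 at 12 h. Levels are CPM (counts scaled to a common library size by TMM), and differences are log2 fold changes (log2FC) with their standard error (SE) from edgeR's quasi-likelihood test over all genes tested, called at an adjusted p under 0.05. Genes known to respond to TGFβ served as a check. Skil and Smad7, feedback inhibitors of the pathway, rose by a log2FC of 2.09 and 2.07 at 2 h and of 2.21 and 2.65 at 12 h. The sums of marker genes below are CPM of the total counts, without TMM factors, and so are not on the scale of the other levels. Of 8 epithelial markers, which summed to 6045 and 5297 CPM with vehicle, 6189 and 6453 at 2 h, and 9965 and 10030 at 12 h with Krt18 the most abundant, Krt8, Krt18, Krt19 and Cdh1 were abundant in every library (Krt19 with 31364 and 26143 counts with vehicle but 9644 and 9534 at 12 h, against the direction of the sum), Krt7 had 16 to 119 counts, Epcam had 2 to 16 counts, and Cldn3 and Cldn7 were at 0 in all but 1 library. The 4 milk protein genes were at 0 in every library. The 5 fibroblast markers summed to 4.18 and 3.74 CPM with vehicle, 8.16 and 8.89 at 2 h, and 14.3 and 14.1 at 12 h, with Col1a1 the most abundant over all libraries. Col1a1 had 11 and 20 counts with vehicle and 252 and 211 at 12 h, and Pdgfrb 0 and 0, then 22 and 26. Dcn went the other way, with 10 and 1 counts with vehicle and 1 and 0 at 12 h. Pdgfra had 47 and 34 counts with vehicle and 64 and 48 at 12 h, in deeper libraries, and Lum had at most 1. The 3 endothelial markers, of which Cdh5 was the most abundant over all libraries, summed to 0.123 and 0.204 CPM with vehicle, 0.292 and 0.352 at 2 h, and 1.68 and 1.89 at 12 h. Cdh5 alone carried this rise, with 1 and 2 counts with vehicle and 39 and 36 at 12 h. Pecam1 and Kdr had at most 2 counts in every library. The part of these markers in the changes at 12 h was not tested. The 3 immune markers summed to at most 7.28 CPM, nearly all of it Cd68, with Cd3e at 0, and the 3 adipocyte markers to at most 0.308 CPM. In bulk RNA, fewer cells of a type and less RNA per cell cannot be told apart.

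At 12 h, 5 of the 10 genes were called higher than with vehicle: Hspa5, Pdia3, Pdia4, Pdia6 and Xbp1. In that comparison 21.8% of all genes tested were called higher and 21.5% lower. The number of the 10 genes called lower at 12 h was 0 by edgeR's quasi-likelihood test, 0 at an unadjusted p under 0.05, 0 by limma-voom and 0 by DESeq2. The median log2FC of the 10 genes at 12 h was 0.60, beside 0.02 over all genes tested. At 2 h, 1 of the 10 was called higher (Xbp1) and 1 lower (Atf6), where 9.91% of all genes tested were called higher and 5.25% lower, and the median log2FC of the 10 was -0.03. Between 2 h and 12 h of TGFβ1, 3 of the 10 were called higher at 12 h (Pdia3, Pdia4 and Pdia6), where 15.2% of all genes tested were called higher and 18.9% lower. The number called lower in that comparison was 0 by edgeR's quasi-likelihood test, 0 at an unadjusted p under 0.05, 0 by limma-voom and 0 by DESeq2. By DESeq2, 5 of the 10 were called higher, beside 1809 of all genes. Leaving out single libraries moved these counts, and the counts over all genes tested moved as well. With the replicate number as a block, 7 of the 10 were called higher at 12 h than with vehicle, where 27.8% of all genes tested were, and 7 were called higher at 12 h than at 2 h, where 23.3% were. Under the stricter rule of an adjusted p under 0.05 and a log2FC above 1, Hspa5 alone was called at 12 h, where 8.03% of all genes tested were called higher.

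**Figure D1:**
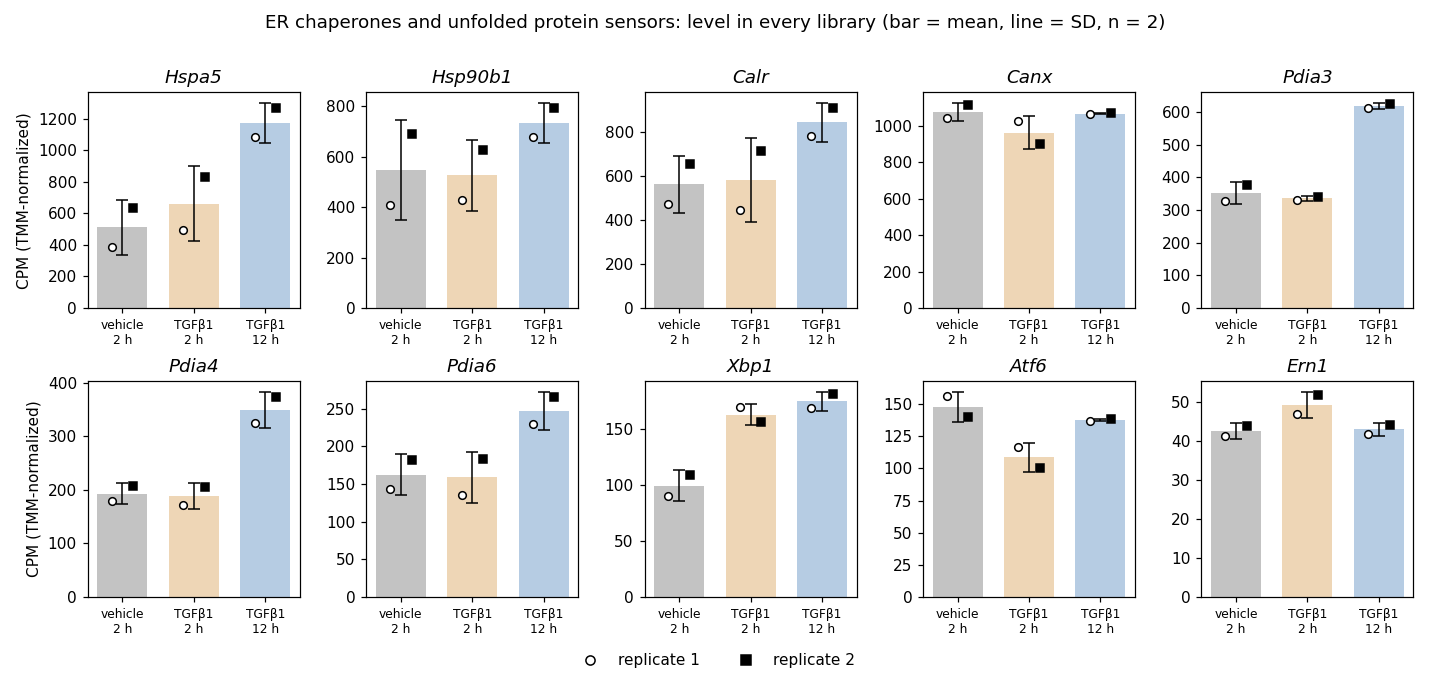
Level of each of the 10 genes (y axis, TMM-normalized CPM from 0) with vehicle and after 2 h and 12 h of TGFβ1 (x axis); open circles are replicate 1, filled squares replicate 2, bars the mean and lines the SD of n = 2. Both 12 h libraries of Hspa5, Pdia3, Pdia4 and Pdia6 lie above the other 4 libraries, both vehicle libraries of Xbp1 lie below the other 4, and replicate 2 lies well above replicate 1 for Hspa5, Hsp90b1 and Calr with vehicle and at 2 h.

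Hspa5 (Entrez 14828, chr2:34627490-34632051, plus strand; this and all positions given here are on NCBIM37, the build also called mm9) encodes BiP, the Hsp70 chaperone of the ER, which binds unfolded chains and keeps the sensors inactive. Its level was 387 and 635 CPM with vehicle, 492 and 828 at 2 h, and 1085 and 1265 at 12 h. Both 12 h libraries were above the other 4, while the ranges with vehicle and at 2 h overlapped. Hspa5 rose at 12 h by a log2FC of 1.20 (SE 0.309, adjusted p = 0.0198 by edgeR's quasi-likelihood test), from 511 ± 175 to 1175 ± 127 CPM (SD, n = 2). The call was lost without vehicle replicate 1 (log2FC 0.89, adjusted p = 0.0862 by edgeR's quasi-likelihood test), without 12 h replicate 1 (1.29, adjusted p = 0.0707) and without 12 h replicate 2 (1.07, adjusted p = 0.113). At 2 h its log2FC was 0.37 (SE 0.305, adjusted p = 0.468 by edgeR's quasi-likelihood test), which became -0.06 without 2 h replicate 2. From 2 h to 12 h the log2FC was 0.83 (SE 0.307, adjusted p = 0.0784 by edgeR's quasi-likelihood test, 0.000668 with the replicate block, and 0.0136 by DESeq2). Without 2 h replicate 2 it was 1.26 (adjusted p = 0.0140 by edgeR's quasi-likelihood test), and without 2 h replicate 1 it was 0.51 (0.187).

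Hsp90b1 (Entrez 22027, chr10:86152954-86168254, minus strand) encodes GRP94, the Hsp90 chaperone of the ER, which finishes the folding of a narrow set of clients such as integrins. It had 408 and 689 CPM with vehicle, 427 and 626 at 2 h, and 679 and 792 at 12 h. The lower 12 h library lay below the higher vehicle library, so that these groups overlapped. Its log2FC at 12 h was 0.42 (SE 0.279, adjusted p = 0.265 by edgeR's quasi-likelihood test, and 0.0123 with the replicate block), which was 0.09 without vehicle replicate 1 and 0.85 without vehicle replicate 2. From 2 h to 12 h it was 0.48 (SE 0.279, adjusted p = 0.227 by edgeR's quasi-likelihood test, and 0.00949 with the replicate block), which was 0.23 without 2 h replicate 1 and 0.78 without 2 h replicate 2. In the comparison of 2 h with vehicle its log2FC was -0.06, and 0.37 without vehicle replicate 2 or 0.17 without 2 h replicate 1. In GENCODE the gene shares bases with Gm15344 and another model on its own strand, and how such reads were divided is not given in the sources used here.

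The gap between replicates was wide for both genes. Replicate 2 was 1.64 times replicate 1 for Hspa5 with vehicle and 1.68 times at 2 h, but 1.17 times at 12 h. Only 4.8% of all genes tested had a wider gap with vehicle and 6.71% at 2 h. For Hsp90b1 these ratios were 1.69, 1.47 and 1.17. The gap ran in the same direction in all 3 groups but was smaller at 12 h. The replicate block takes up only a gap of equal size in every group on the log scale, and so this gap only in part.

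Calr and Canx encode calreticulin and calnexin, the soluble and the membrane-bound lectin chaperones, which hold glycoproteins through their trimmed sugar chains. Calr (Entrez 12317, chr8:87365749-87370833, minus strand) had 471 and 654 CPM with vehicle, 446 and 714 at 2 h, and 781 and 906 at 12 h. Both 12 h libraries were above the other 4, by less than the gap between the replicates of the other groups. The log2FC of Calr at 12 h was 0.58 (SE 0.253, adjusted p = 0.106 by edgeR's quasi-likelihood test, and 0.00224 with the replicate block). Without 2 h replicate 1 or 2 h replicate 2 in the fit, the adjusted p at 12 h was 0.0263 and 0.0233 by edgeR's quasi-likelihood test, it was 0.0248 with both out, and DESeq2 gave 0.0491. Without vehicle replicate 1 the log2FC was 0.37 (adjusted p = 0.384 by edgeR's quasi-likelihood test), without vehicle replicate 2 it was 0.84 (0.0804), and without 12 h replicate 2 it was 0.46 (0.364). From 2 h to 12 h the log2FC of Calr was 0.54 (SE 0.253, adjusted p = 0.145 by edgeR's quasi-likelihood test, and 0.00368 with the replicate block), with 0.92 without 2 h replicate 2 (adjusted p = 0.0157) and 0.24 without 2 h replicate 1 (0.393). At 2 h it was 0.04, which turned to -0.06 with total counts in place of TMM scaling, to -0.17 without vehicle replicate 1 and to -0.34 without 2 h replicate 2.

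Canx (Entrez 12330, chr11:50107969-50139175, minus strand) had 1043 and 1112 CPM with vehicle, 1027 and 897 at 2 h, and 1066 and 1067 at 12 h. The vehicle and 12 h libraries overlapped, and both 2 h libraries were somewhat lower. No comparison of Canx passed the test, with a log2FC of -0.16 at 2 h (SE 0.111, adjusted p = 0.377 by edgeR's quasi-likelihood test) and of -0.01 at 12 h (SE 0.111, adjusted p = 0.929), which was 0.03 without vehicle replicate 2. Together, the 4 chaperones and the 3 isomerases (Pdia3, Pdia4 and Pdia6) summed to 2958 and 3855 CPM with vehicle, 3027 and 3795 at 2 h, and 4777 and 5295 at 12 h.

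Pdia3, Pdia4 and Pdia6 encode ERp57, ERp72 and P5, disulfide isomerases of the ER, and ERp57 works with the lectin chaperones on glycoproteins. Pdia3 (Entrez 14827, chr2:121239511-121264423, plus strand) had 327 and 376 CPM with vehicle, 329 and 341 at 2 h, and 611 and 625 at 12 h. Replicates lay close together, vehicle and 2 h overlapped, and both 12 h libraries stood far above. Pdia3 rose at 12 h by a log2FC of 0.82 (SE 0.108, adjusted p = 0.00141 by edgeR's quasi-likelihood test), and between 2 h and 12 h by 0.88 (SE 0.108, adjusted p = 0.00174). At 2 h its log2FC was -0.07 (adjusted p = 0.717 by edgeR's quasi-likelihood test), and 0.04 without vehicle replicate 2.

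Pdia4 (Entrez 12304, chr6:47746141-47763511, minus strand) had 178 and 206 CPM with vehicle, 171 and 206 at 2 h, and 325 and 373 at 12 h. Its pattern was that of Pdia3, with overlap of vehicle and 2 h and a clear distance to 12 h. Pdia4 rose at 12 h by a log2FC of 0.86 (SE 0.141, adjusted p = 0.00329 by edgeR's quasi-likelihood test), and between 2 h and 12 h by 0.89 (SE 0.141, adjusted p = 0.00429). At 2 h its log2FC was -0.03 (adjusted p = 0.911 by edgeR's quasi-likelihood test), and 0.08 without vehicle replicate 2 or without 2 h replicate 1. The calls of Pdia3 and Pdia4 at 12 h, against vehicle and against 2 h, held without any 1 of the 6 libraries.

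Pdia6 (Entrez 71853, chr12:17273351-17291576, plus strand) had 143 and 182 CPM with vehicle, 135 and 183 at 2 h, and 229 and 265 at 12 h. Again the 12 h libraries were above the other 4, with wider gaps between replicates than for Pdia3. Pdia6 rose at 12 h by a log2FC of 0.61 (SE 0.187, adjusted p = 0.0384 by edgeR's quasi-likelihood test), and between 2 h and 12 h by 0.64 (SE 0.187, adjusted p = 0.0398). These calls were near the threshold. Against vehicle the call was lost without vehicle replicate 1 (log2FC 0.44, adjusted p = 0.187 by edgeR's quasi-likelihood test), without 12 h replicate 1 (0.69, adjusted p = 0.0910) and without 12 h replicate 2 (0.48, adjusted p = 0.201). Against 2 h it was lost without 2 h replicate 1 (log2FC 0.44, adjusted p = 0.0918 by edgeR's quasi-likelihood test), without 12 h replicate 1 (0.73, adjusted p = 0.102) and without 12 h replicate 2 (0.52, adjusted p = 0.200). With total counts in place of TMM scaling, the adjusted p of Pdia6 was 0.0975 against vehicle and 0.0544 against 2 h by edgeR's quasi-likelihood test. At 2 h its log2FC was -0.03, and 0.15 without vehicle replicate 2 or without 2 h replicate 1.

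Xbp1 (Entrez 22433, chr11:5420662-5425896, plus strand) encodes the transcription factor made from the mRNA that IRE1α splices. It had 90.0 and 109 CPM with vehicle, 170 and 156 at 2 h, and 169 and 181 at 12 h. Both vehicle libraries were below the other 4, and the 2 h and 12 h libraries overlapped. Xbp1 rose at 2 h by a log2FC of 0.71 (SE 0.126, adjusted p = 0.0133 by edgeR's quasi-likelihood test) and at 12 h by 0.81 (SE 0.126, adjusted p = 0.00264). The difference between 12 h and 2 h was 0.10 (SE 0.125, adjusted p = 0.554 by edgeR's quasi-likelihood test). At 2 h the call was lost without vehicle replicate 1 (log2FC 0.58, adjusted p = 0.0890 by edgeR's quasi-likelihood test) and with the 12 h libraries out of the fit (adjusted p = 0.0504), while at 12 h it held without any 1 library. Counts summed over exons do not separate spliced from unspliced Xbp1 mRNA.

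Atf6 (Entrez 226641, chr1:172634588-172797902, minus strand) encodes the membrane-bound sensor that is cut to give a transcription factor. It had 156 and 140 CPM with vehicle, 117 and 101 at 2 h, and 137 and 138 at 12 h. Both 2 h libraries were below the other 4, and the 12 h libraries lay just under the lower vehicle library. Atf6 fell at 2 h, with a log2FC of -0.45 (SE 0.116, adjusted p = 0.0481 by edgeR's quasi-likelihood test, and 0.00832 with the replicate block). This call was lost without vehicle replicate 1 (log2FC -0.36, adjusted p = 0.252 by edgeR's quasi-likelihood test), vehicle replicate 2 (-0.53, adjusted p = 0.110), 2 h replicate 2 (-0.34, adjusted p = 0.141), 12 h replicate 1 (-0.45, adjusted p = 0.118) or 12 h replicate 2 (-0.45, adjusted p = 0.119). At 12 h the log2FC of Atf6 was -0.10 (SE 0.116, adjusted p = 0.505 by edgeR's quasi-likelihood test). Between 2 h and 12 h it was 0.34 (SE 0.116, adjusted p = 0.0616 by edgeR's quasi-likelihood test, and 0.0157 with the replicate block), with 0.46 without 2 h replicate 1 (adjusted p = 0.0308) and 0.24 without 2 h replicate 2 (0.198). DESeq2 gave it an adjusted p of 0.0421.

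Ern1 (Entrez 78943, chr11:106255964-106349166, minus strand) encodes IRE1α, the kinase and RNase that splices Xbp1 mRNA. It had 41.2 and 44.0 CPM with vehicle, 46.9 and 51.7 at 2 h, and 41.8 and 44.2 at 12 h. The 2 h libraries were slightly above the other 4, and vehicle and 12 h overlapped. No comparison of Ern1 passed the test, with a log2FC of 0.21 at 2 h (SE 0.109, adjusted p = 0.254 by edgeR's quasi-likelihood test) and of 0.01 at 12 h (SE 0.109, adjusted p = 0.936). The sign at 12 h turned with total counts in place of TMM scaling (-0.12), without vehicle replicate 1 (-0.03) and without 12 h replicate 2 (-0.04).

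**Figure D2:**
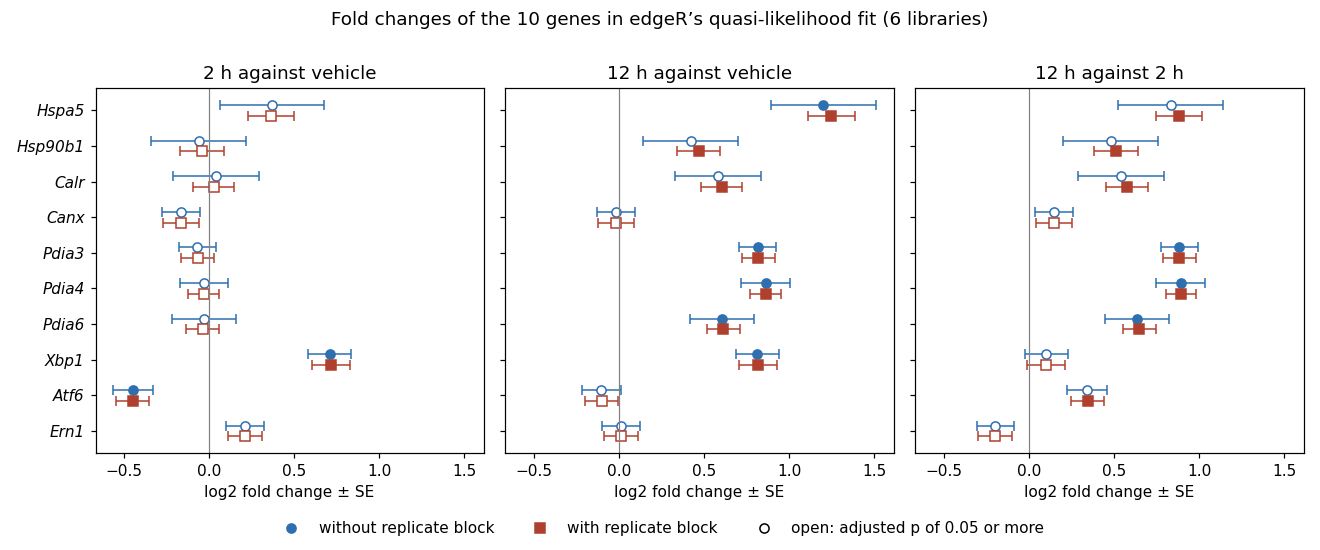
Log2 fold change ± SE (x axis) of each of the 10 genes (y axis) for either time of TGFβ1 against vehicle and for 12 h against 2 h, from edgeR's quasi-likelihood fit of the 6 libraries without (blue circles) and with (red squares) the replicate block; filled symbols have an adjusted p under 0.05. The estimates barely differ between these fits, the SE of Hspa5 at 12 h is 0.309 without and 0.138 with the block, and Hsp90b1 and Calr at 12 h have filled symbols with the block only.

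Levels of different genes were compared per kilobase of annotated exon. With vehicle, Canx led with 257 ± 11.8 CPM per kilobase (SD, n = 2), followed by Calr (195 ± 44.9), Hspa5 (145 ± 49.9), Hsp90b1 (136 ± 49.2) and Pdia3 (112, from 104 to 120). Canx did not overlap Calr, while Calr, Hspa5, Hsp90b1 and Pdia3 overlapped their neighbors in this order. Lower down were Pdia4 (77.5 ± 7.90 CPM per kilobase), Pdia6 (43.4 ± 7.35), Xbp1 (30.7 ± 4.19), Atf6 (19.8 ± 1.58) and Ern1 (5.21 ± 0.239), with no overlap between neighbors. At 12 h, Hspa5 led with 334 ± 36.3 CPM per kilobase, followed by Calr with 293 ± 30.8, and these overlapped. Canx had 255 ± 0.308 CPM per kilobase, below both without overlap. Pdia3 and Hsp90b1 overlapped at 197 ± 3.15 and 182 ± 19.8 CPM per kilobase, and the order below them was that of the vehicle libraries. At 2 h, Xbp1 (50.2 ± 2.91 CPM per kilobase) and Pdia6 (42.5 ± 9.03) were in the opposite order to vehicle, with overlap. The sensors Atf6 and Ern1 had the lowest levels per kilobase of the 10 genes in all 3 groups. With the longest transcript as the length, Canx and Calr at 2 h and Pdia3 and Hsp90b1 at 12 h changed places, and Xbp1 at 2 h passed Pdia4. Among neighbors in the order, with that length Canx overlapped Calr and Pdia4 overlapped Pdia6 with vehicle. At 2 h Pdia4 overlapped both Xbp1 and Pdia6 while Hsp90b1 and Pdia3 no longer overlapped, and neither did Hspa5 and Calr at 12 h.

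The genes most like Hspa5 over the 6 libraries, by Pearson's r of log2 CPM among 7578 other genes with a mean of at least 20 CPM, were Hyou1 (r = 1.00, to 3 digits), Pkd1 (0.996), P4ha2 (0.994), Nop9 (0.992) and Rnf31 (0.991), each with a Spearman's rho of 1. The libraries fall into groups and share their replicate numbers, so that r describes these 6 libraries only. Hyou1, an Hsp110-type exchange factor for BiP in the ER, had 110 and 148 CPM with vehicle, 128 and 173 at 2 h, and 202 and 225 at 12 h. Its libraries stood in the same order as those of Hspa5, replicate gaps included. For the other genes of the 10, r with Hspa5 was 0.956 for Calr, 0.954 for Pdia6, 0.916 for Pdia4, 0.899 for Hsp90b1, 0.863 for Pdia3 and 0.718 for Xbp1. For Ern1, Canx and Atf6 it was 0.104, -0.00732 and -0.169.

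The wider folding machinery was read from 8 gene lists with 126 genes tested. At 12 h, 32 of the 126 were called higher (25.4%) and 9 lower (7.14%), beside 21.8% and 21.5% of all genes tested, and their median log2FC was 0.16. At 2 h, 8 were called higher (6.35%) and 1 lower (0.794%), beside 9.91% and 5.25%, with a median of 0.01. Between 2 h and 12 h, 18 were called higher (14.3%) and 9 lower (7.14%), beside 15.2% and 18.9%. These counts moved when single libraries were left out, and so did the counts over all genes tested. With total counts in place of TMM scaling 7 were called higher and 8 lower at 2 h, beside 854 and 975 of all genes tested. With the replicate block these numbers were 13 and 13, beside 1813 and 1409 of all genes tested. At 12 h, total counts shifted the median log2FC of all genes by -0.13. The number called higher than with vehicle was then 19, with 15 called lower, beside 1830 and 3047 of all genes. With the replicate block it was 49, with 12 called lower, beside 3075 (27.8%) and 3052 of all genes tested. Between 2 h and 12 h, 35 were called higher and 10 lower with the replicate block. With that block, 2585 of all genes tested (23.3%) were called higher between 2 h and 12 h and 2788 lower. Of the genes named from the lists, Manf, Pdia5, Ppib, Prkcsh and Ost4 lost their calls at 12 h with total counts, and Pdia5 and Creb3l3 lost theirs with DESeq2. Total counts also ended the calls of Mcfd2 at 2 h and of Creb3 between 2 h and 12 h, and DESeq2 that of Vkorc1l1 at 2 h.

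Of 20 other ER chaperones and co-chaperones, 5 were called higher and 1 lower at 12 h (9 higher with the replicate block), with a median log2FC of 0.20. Serpinh1, the collagen chaperone HSP47, had 175 and 163 CPM with vehicle, 259 and 269 at 2 h, and 377 and 382 at 12 h. The 3 groups were fully apart. Serpinh1 rose at 12 h by a log2FC of 1.17 (SE 0.0975, adjusted p = 0.000228 by edgeR's quasi-likelihood test), and at 2 h by 0.64 (adjusted p = 0.00724, and 0.0688 without vehicle replicate 2). Mesd, a chaperone of LDL receptor family proteins, rose at 12 h by 0.60. Manf, a secreted factor retained in the ER, had a log2FC of 0.79 at 12 h (adjusted p = 0.0230 by edgeR's quasi-likelihood test), a call lost without vehicle replicate 1, 12 h replicate 1 or 12 h replicate 2 (adjusted p at most 0.122). Dnajc10, a disulfide reductase with a J domain (ERdj5), was the most abundant gene of this list with vehicle and at 2 h but not at 12 h, with 843 and 711 CPM with vehicle, 637 and 449 at 2 h, and 260 and 259 at 12 h. The 12 h libraries were far below the rest. Dnajc10 fell at 12 h, with a log2FC of -1.58 (SE 0.184, adjusted p = 0.000794 by edgeR's quasi-likelihood test). Tor3a, a torsin ATPase, had a log2FC of 0.77 at 2 h, a call lost without vehicle replicate 1 or vehicle replicate 2 (adjusted p at most 0.0645 by edgeR's quasi-likelihood test), and fell by 1.03 between 2 h and 12 h. Sec63, a J-domain partner of BiP, had 0.54 between 2 h and 12 h, a call lost without 12 h replicate 1 or 12 h replicate 2 (adjusted p at most 0.0916 by edgeR's quasi-likelihood test).

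Of 17 other disulfide isomerases and oxidases tested (18 listed), 2 were called higher and 2 lower at 12 h (3 and 4 with the replicate block), with a median log2FC of 0.00. Txndc5, a thioredoxin-domain isomerase (ERp46), had 164 and 170 CPM with vehicle, 237 and 199 at 2 h, and 410 and 406 at 12 h, a log2FC of 1.29 at 12 h (SE 0.117, adjusted p = 0.000300 by edgeR's quasi-likelihood test). Prdx4, the ER peroxiredoxin, had 28.3 and 33.3 CPM with vehicle, 24.8 and 33.6 at 2 h, and 12.6 and 14.7 at 12 h, a log2FC of -1.17 at 12 h (SE 0.192, adjusted p = 0.00328 by edgeR's quasi-likelihood test). So 1 enzyme rose and 1 fell, each clear of the vehicle range. The other calls at 12 h were Pdia5 (log2FC 0.72), lost without either vehicle library or either 12 h library (adjusted p at most 0.182 by edgeR's quasi-likelihood test), and Tmx2 (-0.65), lost without 12 h replicate 2 (adjusted p = 0.0570). Pdia5 lay under 7 CPM in every library. P4hb, the founding protein disulfide isomerase and the most abundant gene of the list, had 1710 and 1826 CPM with vehicle, 1850 and 1959 at 2 h, and 1502 and 1790 at 12 h. Its log2FC at 12 h was -0.10 (adjusted p = 0.537 by edgeR's quasi-likelihood test), and from -0.25 to 0.00 with 1 library left out. At 2 h, 1 gene of the list was called, Vkorc1l1 (log2FC 0.99), at under 5 CPM in every library, and the call was lost without any 1 of the 6 libraries (adjusted p from 0.0636 to 0.190 by edgeR's quasi-likelihood test). Erp44, which retrieves clients from the Golgi, had a log2FC of 0.58 between 2 h and 12 h, a call lost without 2 h replicate 2, 12 h replicate 1 or 12 h replicate 2 (adjusted p at most 0.166 by edgeR's quasi-likelihood test).

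Of 6 ER proline isomerases tested (8 listed), 3 were called higher at 12 h, with a median log2FC of 0.26. Ppic had 24.0 and 20.3 CPM with vehicle, 21.2 and 21.8 at 2 h, and 41.0 and 48.4 at 12 h, a log2FC of 1.01 at 12 h (SE 0.145, adjusted p = 0.00192 by edgeR's quasi-likelihood test). Fkbp7 had a log2FC of 0.91 at 12 h, a call lost without vehicle replicate 2 or 12 h replicate 2 (adjusted p at most 0.0611 by edgeR's quasi-likelihood test), and rose by 1.47 between 2 h and 12 h. Ppib, the most abundant gene of the list, had 0.40 at 12 h (adjusted p = 0.0418 by edgeR's quasi-likelihood test), a call lost without either vehicle library or either 12 h library (adjusted p at most 0.219). At 2 h, Fkbp14 was called lower (log2FC -0.93), as it was with the replicate block. The call was lost with only the 2 groups compared. Among the fits with 1 library left out it held only without 2 h replicate 1, with log2FC values from -1.12 to -0.78.

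Of 12 genes of glycan trimming and the lectin cycle tested (13 listed), 2 were called higher at 12 h, with a median log2FC of 0.17. Mcfd2, a cargo receptor subunit, had 65.6 and 54.2 CPM with vehicle, 83.8 and 83.9 at 2 h, and 99.5 and 102 at 12 h, a log2FC of 0.75 at 12 h (SE 0.118, adjusted p = 0.00278 by edgeR's quasi-likelihood test). Its call at 2 h (0.48, adjusted p = 0.0386 by edgeR's quasi-likelihood test) was lost without any 1 of the 6 libraries (adjusted p from 0.0585 to 0.192). Prkcsh, the regulatory subunit of glucosidase II, had 0.31 at 12 h, a call lost without either vehicle library or either 12 h library (adjusted p at most 0.233 by edgeR's quasi-likelihood test). Ganab, the catalytic subunit of glucosidase II and the most abundant gene of the list, had a log2FC of 0.25 at 12 h (adjusted p = 0.0776 by edgeR's quasi-likelihood test, and 0.0475 with the replicate block). DESeq2 also called Ganab higher at 12 h. Lman1, the lectin partner of Mcfd2, had 0.42 between 2 h and 12 h, a call lost without 2 h replicate 2, 12 h replicate 1 or 12 h replicate 2 (adjusted p at most 0.176 by edgeR's quasi-likelihood test).

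Of 17 other sensors, proteases and factors of the unfolded protein response tested (20 listed), 7 were called higher and 2 lower at 12 h, with a median log2FC of 0.37, and 3 were called higher at 2 h. With the replicate block, 9 were called higher and 3 lower at 12 h, and 4 and 2 at 2 h. Creb3l2, a membrane-bound transcription factor related to ATF6, had 20.8 and 22.8 CPM with vehicle, 83.7 and 89.0 at 2 h, and 81.4 and 66.2 at 12 h. All 4 TGFβ1 libraries were well above vehicle. Creb3l2 rose by a log2FC of 1.99 at 2 h (SE 0.137, adjusted p = 0.000502 by edgeR's quasi-likelihood test) and of 1.76 at 12 h (SE 0.136, adjusted p = 0.000178). Trib3, a pseudokinase induced through PERK and ATF4, rose by 1.53 at 2 h and 1.56 at 12 h. Eif2ak3, which encodes PERK, had 95.7 and 112 CPM with vehicle, 176 and 180 at 2 h, and 158 and 150 at 12 h, a log2FC of 0.78 at 2 h (SE 0.111, adjusted p = 0.00586 by edgeR's quasi-likelihood test, and 0.0521 without vehicle replicate 1). Ddit3, which encodes CHOP, a factor made under prolonged stress, had 28.4 and 30.8 CPM with vehicle, 14.2 and 20.9 at 2 h, and 8.06 and 7.91 at 12 h. The libraries of Ddit3 lay in 3 separate ranges, vehicle the highest. At 2 h its log2FC was -0.75 (adjusted p = 0.0502 by edgeR's quasi-likelihood test, and 0.00686 with the replicate block). Ddit3 fell at 12 h, with a log2FC of -1.89 (SE 0.207, adjusted p = 0.000634 by edgeR's quasi-likelihood test). Atf4, the most abundant gene of the list, had 335 and 313 CPM with vehicle, 325 and 326 at 2 h, and 319 and 359 at 12 h, a log2FC of 0.06 at 12 h (adjusted p = 0.652 by edgeR's quasi-likelihood test). Its sign turned with total counts in place of TMM scaling (-0.06) and without 12 h replicate 2 (-0.04).

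Calls of 3 further genes named from that list were lost without single libraries, with log2FC values of the same sign. Creb3 had a log2FC of 0.53 at 12 h (0.45 to 0.58 with 1 library left out), a call lost without 12 h replicate 2 (adjusted p = 0.0533 by edgeR's quasi-likelihood test). Between 2 h and 12 h it had 0.34, a call lost without any 1 of the 6 libraries (adjusted p at most 0.204 by edgeR's quasi-likelihood test). Creb3l3, at under 5 CPM in every library, had -0.94 at 12 h (-1.15 to -0.77 with 1 library left out), a call lost without either vehicle library or either 12 h library (adjusted p at most 0.184 by edgeR's quasi-likelihood test). From 2 h to 12 h Creb3l3 had -1.65 (adjusted p = 0.00559 by edgeR's quasi-likelihood test), a call lost without 12 h replicate 1 (0.0561). Ppp1r15a, which encodes GADD34, the phosphatase subunit that reverses the block of translation by PERK, had 0.67 between 2 h and 12 h (0.52 to 0.85 with 1 library left out), a call lost without 2 h replicate 2, 12 h replicate 1 or 12 h replicate 2 (adjusted p at most 0.188 by edgeR's quasi-likelihood test).

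Of 26 genes of ER-associated degradation tested (27 listed), 5 were called higher and 2 lower at 12 h (8 and 2 with the replicate block), with a median log2FC of 0.06. Herpud1, a membrane scaffold of the degradation complex, had 343 and 278 CPM with vehicle, 377 and 287 at 2 h, and 92.4 and 109 at 12 h. Vehicle and 2 h overlapped, and the 12 h libraries were far below. Herpud1 fell at 12 h, with a log2FC of -1.62 (SE 0.181, adjusted p = 0.000684 by edgeR's quasi-likelihood test). Ubxn8, which tethers the p97 ATPase to the ER, had -0.84 at 12 h, a call lost without vehicle replicate 1, 12 h replicate 1 or 12 h replicate 2 (adjusted p at most 0.0698 by edgeR's quasi-likelihood test). Ubxn4 had 0.55 at 12 h, a call lost without 12 h replicate 2 (adjusted p = 0.0530 by edgeR's quasi-likelihood test). Dnajb12 had 0.57 at 12 h, a call lost without vehicle replicate 1, 12 h replicate 1 or 12 h replicate 2 (adjusted p at most 0.0678 by edgeR's quasi-likelihood test), and 0.68 at 2 h, lost without either vehicle library (at most 0.104). Ube2j1, a ubiquitin-conjugating enzyme, had 0.57 at 12 h, a call lost without either vehicle library or either 12 h library (adjusted p at most 0.143 by edgeR's quasi-likelihood test).

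Of 17 genes of translocation into the ER tested (18 listed), 6 were called higher at 12 h, with a median log2FC of 0.22, and 1 was called higher at 12 h than at 2 h (6 with the replicate block). Spcs3, a signal peptidase subunit, had 112 and 111 CPM with vehicle, 98.1 and 83.7 at 2 h, and 281 and 244 at 12 h. Its 12 h libraries were far above the rest. Spcs3 rose at 12 h by a log2FC of 1.23 (SE 0.125, adjusted p = 0.000462 by edgeR's quasi-likelihood test). Sec61a1, the channel subunit and the gene of the list with the highest mean CPM over the 6 libraries (Ssr3 was above it in both vehicle libraries, 2 h replicate 1 and 12 h replicate 1), had a log2FC of 0.44 at 12 h, a call lost without either vehicle library or either 12 h library (adjusted p at most 0.0778 by edgeR's quasi-likelihood test). Srpr, a subunit of the receptor for the signal recognition particle, had 0.47, a call lost without vehicle replicate 2 or 12 h replicate 2 (adjusted p at most 0.0787 by edgeR's quasi-likelihood test).

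Of 11 oligosaccharyltransferase genes, 2 were called higher and 2 lower at 12 h (6 and 2 with the replicate block), with a median log2FC of 0.26. Stt3b, the catalytic subunit that adds sugar chains after translocation and the most abundant gene of this list with vehicle and at 2 h, had 853 and 834 CPM with vehicle, 771 and 723 at 2 h, and 347 and 340 at 12 h. Vehicle, 2 h and 12 h did not overlap. Stt3b fell at 12 h, with a log2FC of -1.30 (SE 0.0979, adjusted p = 0.000164 by edgeR's quasi-likelihood test), while Ostc rose by 0.50. Ost4 (0.42) and Magt1 (-0.39) lost their calls without either vehicle library or either 12 h library (adjusted p at most 0.104 and 0.198 by edgeR's quasi-likelihood test). Of the genes of this list and of that of translocation, edgeR's quasi-likelihood test called at 2 h 0 of 11 and 0 of 17, as did limma-voom and DESeq2, and at an unadjusted p under 0.05 the counts were 1 and 0. With the replicate block 1 gene of each list was called lower at 2 h, Magt1 and Spcs3.

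**Figure D3:**
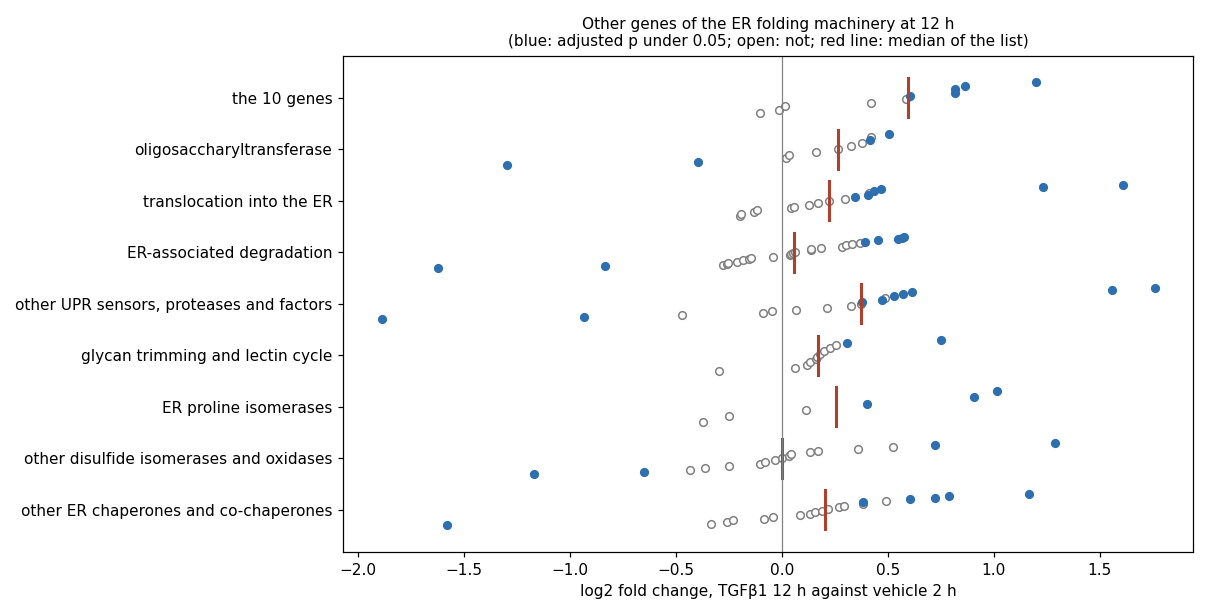
Log2 fold change at 12 h against vehicle (x axis) of every gene tested in the 8 lists of the ER folding machinery and of the 10 genes (y axis, 1 dot a gene, spread vertically by rank); blue dots have an adjusted p under 0.05 by edgeR's quasi-likelihood test, open dots do not, and red lines are medians. The median of the 10 genes is 0.60, those of the lists run from 0.00 to 0.37, and Ddit3 (-1.89), Herpud1 (-1.62), Dnajc10 (-1.58) and Stt3b (-1.30) lie farthest to the left.

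The promoters of the 10 genes were searched for the ER stress element, a sequence that ATF6 binds together with NF-Y, spelled CCAAT, 9 bases, CCACG, on both strands with no mismatch. Promoters are from RefSeq on GRCm38.p6, 250 bases before to 50 after the start of the gene, and 9 of the 10 genes matched the table, which has no entry for Atf6. The element was found in 39 of 32851 promoters (0.119%), and in 5 of the 9 genes: Hspa5, Hsp90b1, Calr, Canx and Pdia6. These are the matches, shown because genes that carry the element and genes that do not were both among those that rose, with the fixed letters in capitals, read 5′ to 3′ on the strand of the gene; matches of the opposite strand appear as CGTGG, 9 bases, ATTGG.
Hspa5: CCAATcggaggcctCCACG
Hsp90b1, far: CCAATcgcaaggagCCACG
Hsp90b1, near: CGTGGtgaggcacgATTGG
Calr: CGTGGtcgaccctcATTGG
Canx: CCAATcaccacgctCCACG
Pdia6: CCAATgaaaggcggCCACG

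The element of Hspa5 began 65 bases before the RefSeq start, at chr2:34627545-34627563, inside an exon of the GENCODE model of the gene. Those of Hsp90b1 began 212 and 107 bases before the start (chr10:86168383-86168401 and chr10:86168278-86168296), and Hsp90b1 held the 1 promoter in the table with more than 1 element. The others began 162 bases before the start in Calr (chr8:87370974-87370992), 145 in Canx (chr11:50139302-50139320) and 98 in Pdia6 (chr12:17273297-17273315), all outside the GENCODE models of their genes. Of the 5 genes with an element, Hspa5 and Pdia6 were called higher at 12 h, Hsp90b1 and Calr were not but were with the replicate block (Calr also by DESeq2), and Canx was called in neither fit. Of the 4 genes without one, Pdia3, Pdia4 and Xbp1 were called higher and Ern1 was not. Among genes of the lists with a promoter in the table, 4 of 100 held an element (Creld2, Dnajc3, Syvn1 and Ero1lb), with a log2FC at 12 h of 0.49, 0.27, 0.14 and -0.36. At 12 h 0 of these 4 were called, beside 24 called higher and 8 lower of the 96 without, and the median log2FC was 0.20 and 0.17. With the replicate block, Creld2 and Dnajc3 of the 4 were called higher, beside 37 higher and 11 lower of the 96. Between 2 h and 12 h, without that block, Dnajc3 alone of the 4 was called higher (log2FC 0.34, adjusted p = 0.0334 by edgeR's quasi-likelihood test). Of the 96, 12 were called higher and 7 lower in that comparison. A match is a description of the sequence and not a measured binding site.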

How the data were processed

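The study's methods state that reads passing a quality filter were mapped on mm9 by subjunc (Rsubread), that multi-mapping reads and duplicates were dropped (SAMtools 0.1.19), and that featureCounts then counted sense-strand reads over exons. The deposited values are raw counts per gene, with no normalization.

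The software was R 4.3.3, edgeR 4.0.16, limma 3.58.1, DESeq2 1.42.0 and Python 3.11.15. A gene was tested if 2 libraries or more reached 2 CPM of the total counts. One edgeR quasi-likelihood fit with TMM factors covered the 3 groups, and p-values were adjusted over all genes tested in each contrast by the Benjamini-Hochberg method. The script was tested on simulated data without a replicate effect, so that this test did not cover the replicate block or left-out libraries. For likeness to Hspa5, 0.25 CPM was added before logarithms. The SE of a log2FC is its size divided by the square root of F. Positions and exon lengths came from GENCODE vM1 on NCBIM37, matched by symbol, and elements were placed by exact match of the promoter to that genome.

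Alternatives were limma-voom, DESeq2 and its size factors, total counts, no filter or one of 10 counts in every library, the replicate number as a block (replicate block), a fit of only the groups compared, each library left out, and a log2FC above 1. Replicates differed by a median of 0.152 on the log2 scale with vehicle, 0.220 at 2 h and 0.134 at 12 h, and counts of replicates differed by more than sampling noise. Deviations of libraries with the same replicate number correlated across genes at 0.708 (vehicle and 2 h), 0.263 (vehicle and 12 h) and 0.392 (2 h and 12 h). The labels give the numbers but name no shared batch, so the pairing rests on these correlations.

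The members and lists were chosen with earlier results of these data known. From each list, the genes named are the 3 called genes of smallest p in each contrast and direction and the gene of highest mean CPM over all libraries, and by likeness to Hspa5 the 5 of highest r. Genes with a promoter element and markers were named by that property. Some genes that this rule selects are not reported here.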

Additional observations from a re-analysis of the deposited data

Results flagged for a closer look

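The response to TGFβ1 at 12 h differed from that at 2 h for Pdia3, Pdia4 and Pdia6, by the test of the difference itself. The response at 12 h minus that at 2 h was 0.88 on the log2 scale for Pdia3 (adjusted p = 0.00174 by edgeR's quasi-likelihood test), 0.89 for Pdia4 (adjusted p = 0.00429) and 0.64 for Pdia6 (adjusted p = 0.0398). For Pdia3 and Pdia4 the call held without any 1 library, while that of Pdia6 was lost with total counts (adjusted p = 0.0544 by edgeR's quasi-likelihood test) and without 2 h replicate 1 (0.0918), 12 h replicate 1 (0.102) or 12 h replicate 2 (0.200). The vehicle terms cancel in this difference, which equals 12 h against 2 h of TGFβ1. Time without serum also differs between these groups and cannot be told apart from time with TGFβ1.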

How the results depend on the processing

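The calls of Pdia3, Pdia4 and Xbp1 at 12 h, and of Pdia3 and Pdia4 between 2 h and 12 h, held in every alternative but a log2FC above 1. With the replicate block, 7 of the 10 genes were called higher between 2 h and 12 h, against 3 without it, and it changed no call of the 10 genes other than those given with Hspa5, Hsp90b1, Calr and Atf6. DESeq2 called 5 higher between 2 h and 12 h. With no filter, 0 were called lower at 2 h, and with only the 2 groups compared 0 were called higher and 0 lower at 2 h. Requiring a log2FC above 1 left 0 higher and 0 lower at 2 h, 1 higher at 12 h and 0 higher between 2 h and 12 h. With total counts, the log2FC of Calr at 2 h was -0.06, and at 12 h that of Ern1 was -0.12 and that of Atf4 -0.06. The cause was not tested.

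With 1 library left out, from 0 to 1 of the 10 genes were called higher at 2 h, 0 to 1 lower at 2 h, 3 to 6 higher at 12 h and 2 to 5 higher between 2 h and 12 h. A group left with 1 library is then assumed to vary like the others. The log2FC at 2 h ran from -0.06 to 0.77 for Hspa5, -0.39 to 0.37 for Hsp90b1, -0.34 to 0.33 for Calr, -0.28 to -0.07 for Canx, -0.16 to 0.04 for Pdia3, -0.17 to 0.08 for Pdia4 and -0.27 to 0.15 for Pdia6. At 12 h it ran from -0.06 to 0.03 for Canx, -0.18 to -0.02 for Atf6, -0.04 to 0.06 for Ern1 and -0.04 to 0.13 for Atf4. From 2 h to 12 h it ran from 0.04 to 0.17 for Xbp1.

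Over all genes tested, 1098 were called higher and 582 lower at 2 h, and 1813 and 1409 with the replicate block, 644 and 249 with only the 2 groups compared, and 854 and 975 with total counts, so that the share of calls that were higher went from 65.4% to 46.7%. At 12 h that share went from 50.3% to 37.5% with total counts. Total counts shifted the median log2FC of all genes by -0.11 at 2 h and -0.13 at 12 h. Between 2 h and 12 h, 1682 were called higher, and 2585 with the replicate block. A log2FC above 1 left 469 higher and 223 lower at 2 h, 890 and 1286 at 12 h, and 499 and 1094 between 2 h and 12 h. With 1 library left out the counts ran from 499 to 1250 higher and 138 to 950 lower at 2 h, 1333 to 2712 and 1506 to 2786 at 12 h, and 640 to 1699 and 1031 to 2122 between 2 h and 12 h. Of 70 called values of named genes of the lists, 31 held in every alternative with a test and 0 changed sign.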
